A study of Sus scrofa with 12 samples.

Results

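The genes described here build the extracellular matrix of pig skeletal muscle, hold cells to it, or cut it. They were taken from the whole-genome count tables by symbol: every gene whose symbol starts with COL, LAMA, LAMB, LAMC, ITGA, ITGB, FBLN, FBN, THBS, ADAMTS, MMP or TIMP followed by a digit, and DCN, LUM, FMOD and BGN. The rule found 92 genes among 20741 features. They were 26 collagen chains, 8 laminin chains, 14 genes with an integrin symbol, 3 small leucine rich proteoglycans, 7 fibulins and fibrillins, 4 thrombospondins, 13 ADAMTS proteases and 17 matrix metalloproteinases. No ID carried a TIMP symbol or BGN, or symbols of major muscle chains such as COL1A1, COL4A1, COL6A1, LAMA2, ITGA7 and ITGB1, so those genes are not analysed here. One of the 14 integrin symbols, ITGB1BP1, belongs to a cytoplasmic protein that binds an integrin tail and is not itself an integrin.

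Muscle RNA was sequenced from 12 pigs, 6 labelled high drip and 6 labelled low drip. Drip is the fluid that raw meat loses after slaughter, so high drip means a low water holding capacity. Each group held 3 females and 3 males (replicates 1 to 3 female, 4 to 6 male in both), 167 to 189 days old, with no treatment or genotype named. The breed, the muscle sampled and the drip values are not given in the sources used here, and p-values measure the spread between these 12 samples.

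In muscle, a collagen network surrounds each fibre and each bundle of fibres, and a basement membrane of laminin and type IV collagen coats the fibre surface. Fibroblasts make most of the fibrillar collagen and proteoglycan. Integrins tie laminin and fibronectin to the cytoskeleton, while ADAMTS proteases and matrix metalloproteinases process or degrade the matrix.

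Facts of the whole series that bear on these genes were as follows. The tables held 8009627 to 12622043 counts per animal. For 3 females (high drip replicate 2, low drip replicates 1 and 2) the whole-genome table recorded for the animal carried another animal's number. Tables were assigned by number, since each animal's second table, of 770 features in selected chromosomal regions, shared 737 to 745 identical counts with the whole-genome table of the same number and at most 167 with any other. Main results below are also given for the 9 animals without such a conflict (5 high, 4 low drip). The females among them were high drip replicates 1 and 3 and low drip replicate 3. Liver transcripts were present in 6 libraries: albumin reached 26.9 to 312 CPM (counts scaled to a common library size) in high drip replicates 1 to 4 and low drip replicates 5 and 6, and 0.355 to 2.34 CPM in the others. The skeletal muscle genes ACTA1 and DES summed to 63122 to 99771 CPM in the 12 libraries.

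Of the 92 genes, 65 had counts enough to be tested and 72 had a count in every library. The 27 untested genes did not exceed 2.34 CPM in any library. Among them COL10A1, a hypertrophic cartilage collagen, and the proteases MMP1 and MMP20 were at 0 counts in all 12 libraries, and 3 counts correspond to 0.234 to 0.355 CPM. COL4A3 and COL4A4, chains of a specialised basement membrane collagen, reached 0.73 and 1.11 CPM. MMP9, a gelatinase of white blood cells, reached 0.50 CPM. Together the 92 genes took 0.451% to 0.793% of all counts in a library. COL3A1 alone supplied 34.0% to 42.7% of them.

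**Figure D1:**
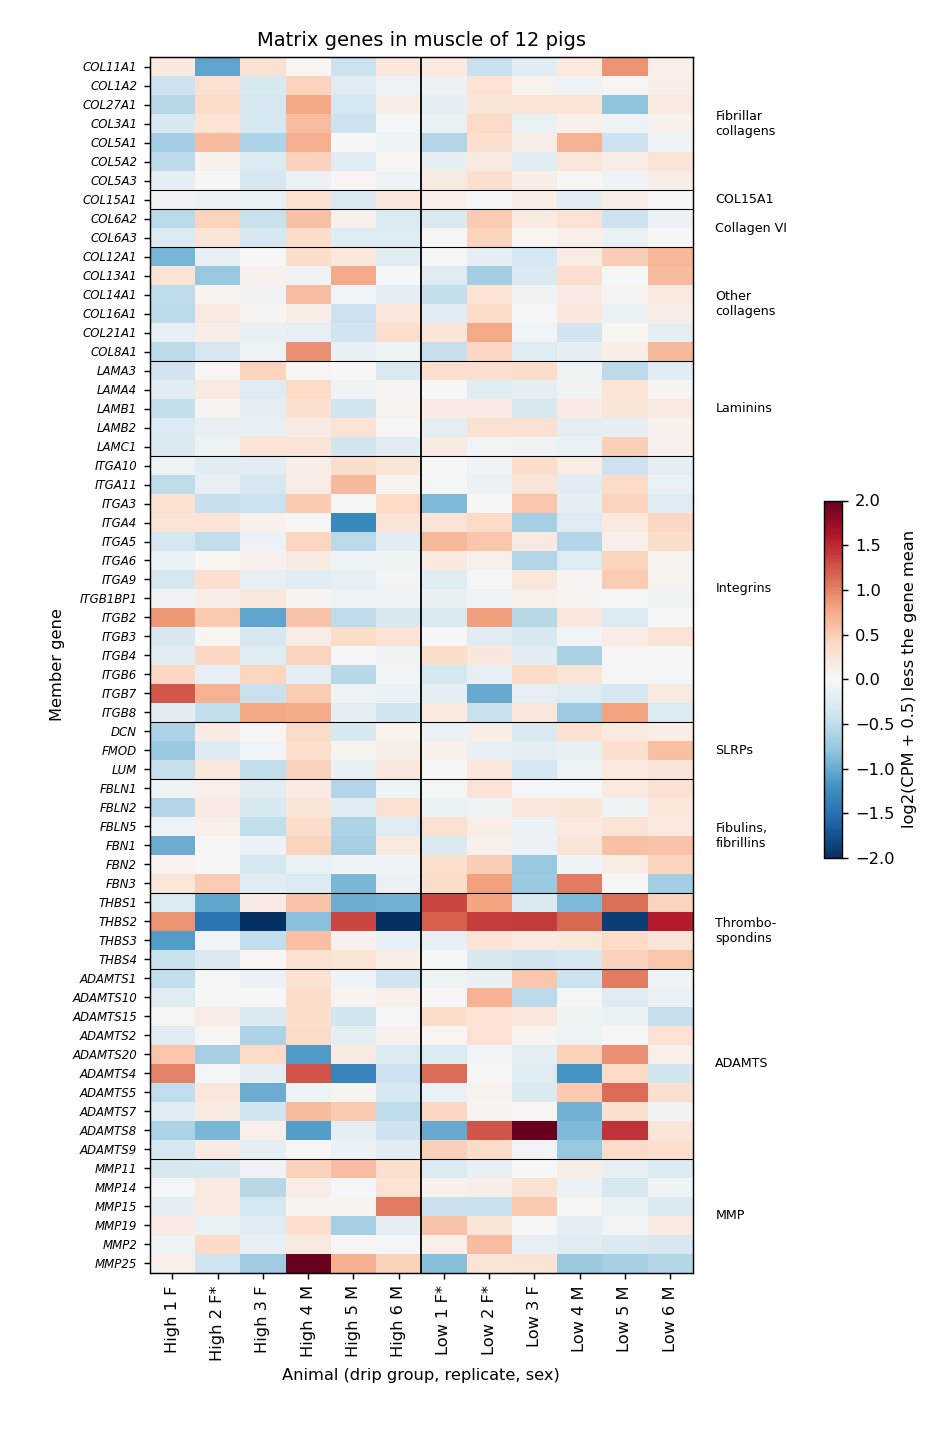
Of the tested matrix genes, 64 are drawn (rows, by class) in the 12 animals (columns: drip group, replicate number, F female or M male; * marks the 3 animals whose recorded table carried another number). Colour gives log2(CPM + 0.5) less the gene's mean over animals, limited to 2 either way, and SLRPs are small leucine rich proteoglycans. THBS2 shows the widest split among animals, and the column of high drip replicate 4 is mostly red.

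No matrix gene passed the test between high and low drip pigs. edgeR's quasi-likelihood test with Benjamini-Hochberg adjustment called 0 of the 65 and 0 of all 10093 features tested (0.0%), with every member at an adjusted p of 0.999. DESeq2 and limma's voom called 0 features as well. At an unadjusted p under 0.05 the edgeR test had 5 of 65 members and 3.58% of all features, 361 in number, against 344 with DESeq2 and 361 with voom. Of the 5 members, 4 were lower in high drip (ADAMTS8, COL5A3, THBS1 and ADAMTS5, beside 1.95% of all features) and 1 was higher (ITGB7, beside 1.62%). The log2 fold, high minus low drip, was below 0 in 44 of the 65 tested members, with a median of -0.07, and in 48.8% of all features, while 51.2% of all features had a fold above 0. In females alone 50 of 63 members were below 0 (median -0.19), beside 50.2% of all features. In males alone 33 of 65 were (median -0.01), beside 48.7% of all features. All high drip females and no low drip female had liver transcripts, so drip and liver content cannot be told apart in females. Albumin was at 31.6, 312 and 34.4 CPM in the high drip females and at 1.52, 0.706 and 0.355 CPM in the low drip females. High drip replicate 2 and low drip replicates 1 and 2 also had a table conflict. In the 9 animals 5 members had an unadjusted p under 0.05, as did 2.26% of all features, and 0 features were called. Folds there were below 0 in 35 members, with a median of -0.03, beside 49.2% of all features. For 0 of the 65 members did the 6 high and 6 low drip animals separate without overlap, which 0.0892% of all features did. In whole muscle, fewer cells of a type and less RNA per cell cannot be told apart.

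**Figure D2:**
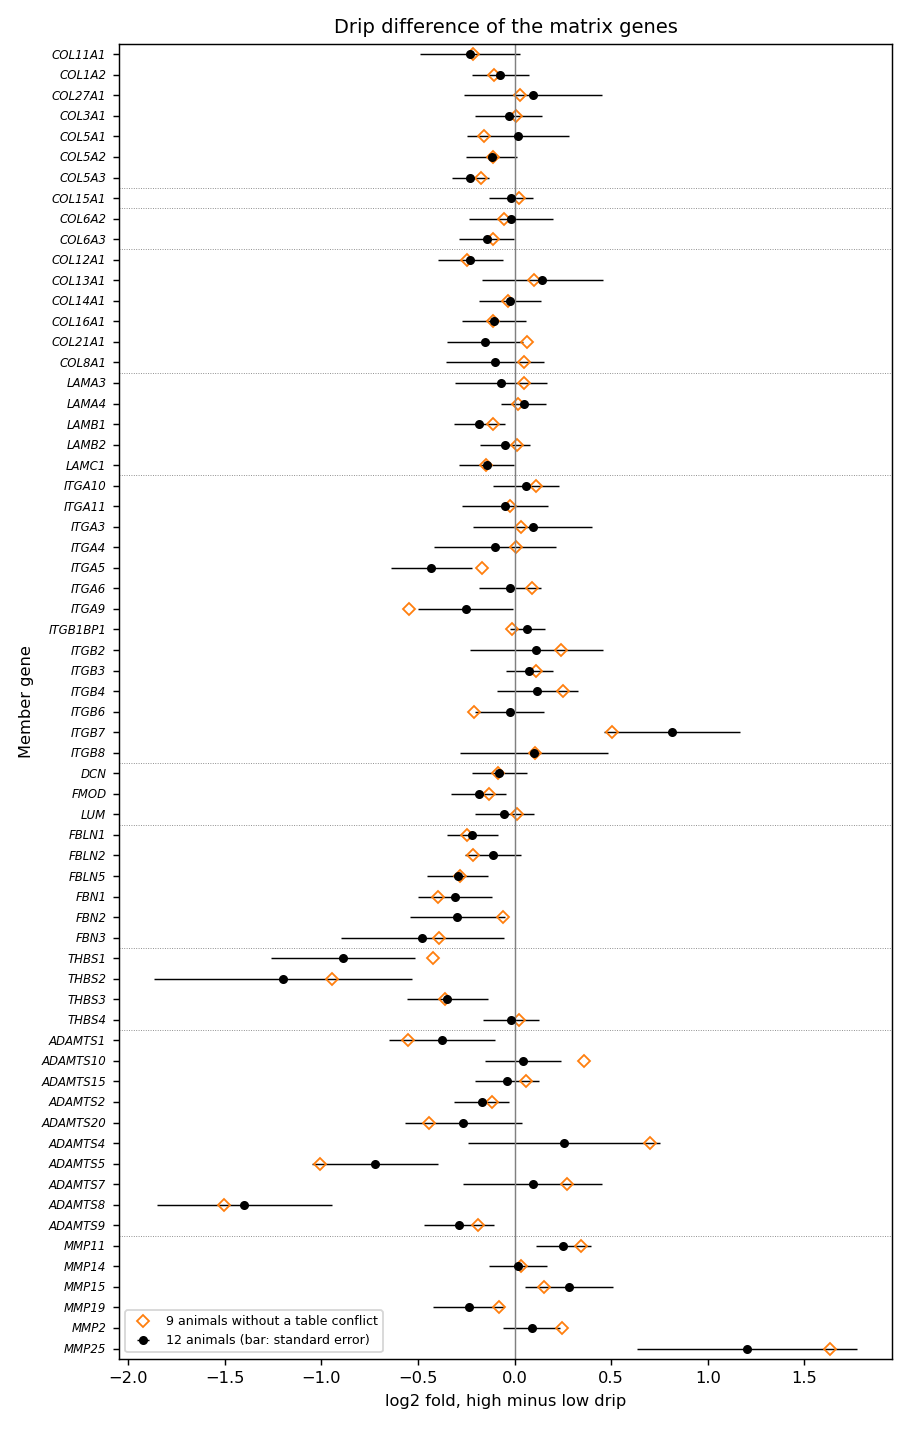
Log2 fold, high minus low drip, of 64 tested matrix genes, with black points for 12 animals, bars for 1 standard error, and open diamonds for the 9 animals without a table conflict. Most points lie within 0.5 of 0, ADAMTS8 at -1.40 and THBS2 at -1.20 lie farthest left, and MMP25 at 1.20 lies farthest right.

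The fibrillar collagens form the load-bearing fibrils of the endomysium and perimysium. COL3A1, the single chain of type III collagen, ranged from 1703 to 3504 CPM in high drip animals with a median of 2032, and from 2072 to 2966 CPM with a median of 2264 in low drip animals. The high drip group contained both the lowest and the highest animal, and the means were 2306 ± 702 and 2348 ± 345 CPM (SD, n = 6 each). Its log2 fold was -0.03 ± 0.17 (standard error) in 12 animals and 0.01 in the 9. COL1A2, the second chain of type I collagen, had 834 ± 210 CPM in the high drip group and 877 ± 88.8 CPM in the low drip group. Type V collagen, which seeds fibrils and limits their width, was measured through all of its chains. COL5A1 and COL5A2 had log2 folds of 0.02 ± 0.26 and -0.12 ± 0.13. The third chain, COL5A3, ran from 69.4 to 90.4 CPM (median 81.9) in high drip and from 82.6 to 110 CPM (median 96.3) in low drip animals. For COL5A3, 4 of the 6 low drip animals lay above every high drip animal. The difference was -0.23 ± 0.10 with an unadjusted p of 0.0319 and an adjusted p of 0.999 by edgeR, and -0.18 ± 0.11 in the 9 animals. Of the 7 tested fibrillar chains, 5 had a fold below 0, and the class median was -0.07.

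Type VI collagen makes beaded filaments beside the muscle basement membrane. COL6A3 had 291 ± 64.6 CPM in the high drip group and 323 ± 47.7 CPM in the low drip group, and COL6A2 had 104 ± 34.8 and 106 ± 26.6 CPM. Their log2 folds were -0.14 ± 0.14 and -0.02 ± 0.22. Both chains were high in the same animals, high drip replicates 2 and 4 and low drip replicate 2. Among the other collagens, COL14A1 and COL12A1 encode molecules that sit on the surface of fibrils. COL14A1 had a fold of -0.02 ± 0.16 and COL12A1 of -0.23 ± 0.17. COL12A1 ran from 7.75 to 19.5 CPM in the high drip group and from 11.8 to 24.3 CPM in the low drip group, so the groups overlapped over most of their range. COL15A1, a collagen of the basement membrane zone, varied 1.51-fold over the 12 animals, with a drip fold of -0.02 ± 0.11.

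Laminins are trimers of an alpha, a beta and a gamma chain that polymerise into the basement membrane sheet. LAMB2, a chain enriched at neuromuscular junctions, had 181 ± 28.1 CPM in the high drip group and 186 ± 31.8 CPM in the low drip group. LAMC1, the gamma chain of most laminins, had 178 ± 35.5 and 197 ± 32.1 CPM, with a fold of -0.14 ± 0.14. LAMA4, an alpha chain typical of vessel walls, had a fold of 0.05 ± 0.11. Of 6 tested laminin chains 4 had folds below 0, and in the 9 animals 2 did. LAMB2 was the only one of the 92 genes listed in the region tables too, with identical counts, 1376 to 2220, in both tables of all 12 animals.

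Integrins are the cell's receptors for these proteins, each a pair of an alpha and a beta chain. ITGB7, a beta chain of lymphocyte integrins, was scarce, with 1.28 to 5.24 CPM in high drip animals (median 2.36) and 0.706 to 2.24 CPM in low drip animals (median 1.58). High drip replicates 1, 2 and 4 were above every low drip animal, and these 3 libraries held liver transcripts. The ITGB7 fold was 0.81 ± 0.35 (unadjusted p 0.0365, adjusted p 0.999 by edgeR), and 0.51 ± 0.41 in the 9 animals. Macrophages are another white blood cell. Their summed markers ranged from 28.9 to 85.9 CPM in high drip and from 38.1 to 73.8 CPM in low drip animals. Of 10 such genes 5 were measured, none at 0 in all libraries, and 4 had a fold above 0 (median 0.08). The part of these markers in the ITGB7 values was not tested. ITGA5, the alpha chain of the fibronectin receptor, had 30.6 ± 8.52 CPM in the high drip group and 41.7 ± 11.5 CPM in the low drip group. Its fold was -0.43 ± 0.21, and it was -0.17 ± 0.23 without the 3 conflicting females, 2 of which were the low drip animals with the highest ITGA5, 55.2 and 51.3 CPM. Of the 14 genes in this class 8 had folds above 0 and 6 below, with a median of 0.06.

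Decorin (DCN), lumican (LUM) and fibromodulin (FMOD) coat collagen fibrils and set their spacing. DCN ran from 358 to 710 CPM (median 569) in high and from 449 to 680 CPM (median 599) in low drip animals. All low drip animals fell within the high drip range. The log2 folds were -0.08 ± 0.14 for DCN, -0.05 ± 0.15 for LUM and -0.19 ± 0.14 for FMOD. Summed over DCN, LUM, FMOD, FBN1 and THBS4, the fibroblast genes named for this set, levels were 527 to 1066 CPM in the high drip group and 670 to 973 CPM in the low drip group. PDGFRA, CLEC3B and PI16, other fibroblast genes, summed to 109 to 151 and 106 to 149 CPM (3 of 8 measured).

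Fibrillins form the microfibrils that elastic fibres are built on, and fibulins link them to other matrix proteins. All 6 tested members had a fold below 0, with a median of -0.30, and the same 6 of 6 held in the 9 animals, with a median of -0.26. None had an unadjusted p under 0.05, and beside them 48.8% of all features had a fold below 0. With a term for liver transcripts 3 of the 6 had such a p by edgeR, all lower in high drip, beside 2.48% of all features. The median fold was then -0.35, and 0 of the 6 were called. FBN1, the main fibrillin, ran from 41.2 to 113 CPM (median 79.2) in high and from 67.4 to 123 CPM (median 93.2) in low drip animals. High drip replicates 1 and 5, at 41.2 and 51.8 CPM, were below all low drip animals, and the other 4 overlapped them. Its fold was -0.31 ± 0.19. FBLN5, which guides elastic fibre assembly, had 20.5 ± 5.39 CPM in the high drip group and 25.2 ± 2.54 CPM in the low drip group, a fold of -0.29 ± 0.16. FBLN1 and FBLN2 had folds of -0.22 ± 0.13 and -0.11 ± 0.14.

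Thrombospondins are secreted matrix proteins that bind growth factors, proteases and cell surface receptors. THBS1, an activator of latent transforming growth factor beta and an inhibitor of vessel growth, was at 47.8, 27.9, 64.6, 85.8, 29.0 and 29.9 CPM in high drip replicates 1 to 6. Low drip replicates 1 to 6 had 147, 101, 47.0, 31.2, 125 and 79.1 CPM. Low drip replicates 1, 2 and 5 lay above every high drip animal, and the other 3 lay among them. The fold was -0.89 ± 0.37 (unadjusted p 0.0321, adjusted p 0.999 by edgeR), and -0.42 ± 0.43 in the 9 animals, which lack low drip replicates 1 and 2. THBS3 had a fold of -0.35 ± 0.21. THBS4, abundant in tendon and muscle connective tissue, had -0.02 ± 0.15.

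THBS2, which shares the anti-angiogenic domains of THBS1, fell into a lower and an upper set of animals. Its level in high drip replicates 1 to 6 was 73.3, 13.9, 7.12, 21.8, 99.6 and 7.11 CPM. Its level in low drip replicates 1 to 6 was 89.8, 102, 104, 87.1, 10.2 and 116 CPM. Thus 4 high drip animals and 1 low drip animal lay between 7.11 and 21.8 CPM, 2 high drip and 5 low drip animals lay between 73.3 and 116 CPM, and no animal lay between. The raw counts behind these values were 67 to 237 and 671 to 1300. Both sexes occurred in both sets. Liver transcripts were present in 4 of the 5 libraries of the lower set and in 2 of the 7 of the upper set, and their part in the THBS2 values was not tested. The step between the sets was 3.37-fold. Among 5649 features with at least 100 counts on average, 5 had as wide a step between neighbouring animals with at least 3 animals on either side, or 0.0885%. THBS2 was the only one of the 92 genes among them, and the median feature had a widest step of 1.10-fold. The measure was chosen after the THBS2 values were seen, so this share is a description and not a test. The drip fold was -1.20 ± 0.67 (unadjusted p 0.0931, adjusted p 0.999 by edgeR), -0.95 ± 0.81 in the 9 animals, -0.46 with the tables as recorded, and -1.94 without high drip replicate 5.

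**Figure D3:**
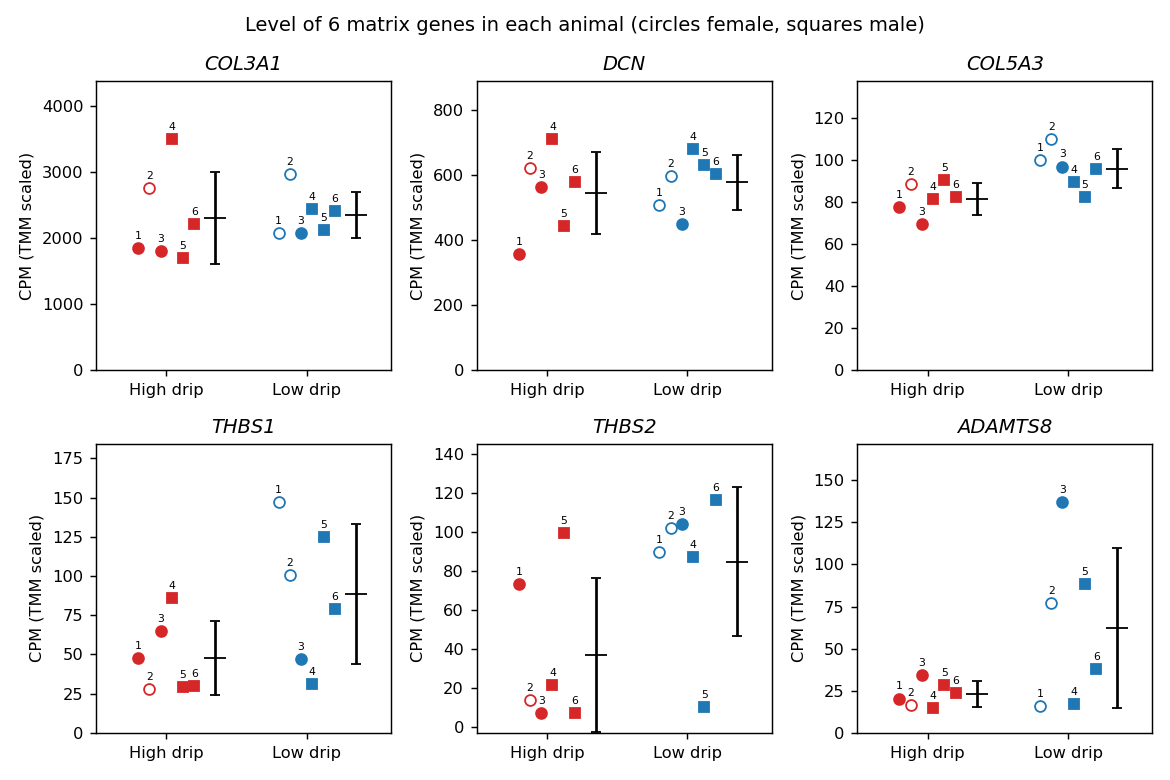
Level of 6 matrix genes in each animal, in CPM on linear axes, with numbers for the replicate, circles for females, squares for males and open symbols for the 3 animals whose recorded table carried another number. Black bars give the mean ± SD of 6 animals, and for THBS2 in high drip the bar reaches below 0 because the SD, 39.5, exceeds the mean, 37.1. COL3A1 and DCN overlap fully between groups, THBS2 falls into an upper and a lower set, and ADAMTS8 stays at or below 34.6 CPM in high drip and reaches 137 CPM in low drip.

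ADAMTS enzymes are secreted proteases with thrombospondin repeats that cut proteoglycans and procollagens. ADAMTS8, a proteoglycan-cleaving member, had the smallest p of the 65 genes. High drip replicates 1 to 6 had 20.4, 16.7, 34.6, 14.6, 28.3 and 23.8 CPM. Low drip replicates 1 to 6 had 15.7, 77.4, 137, 17.1, 88.2 and 38.1 CPM. Low drip replicates 2, 3, 5 and 6 lay above every high drip animal, while low drip replicates 1 and 4 lay in the lower part of the high drip range. The means were 23.1 ± 7.47 and 62.3 ± 47.6 CPM, and the fold was -1.40 ± 0.45 (unadjusted p 0.00776, adjusted p 0.999 by edgeR). It was -1.50 ± 0.42 in the 9 animals, -0.72 with the tables as recorded, and between -1.61 and -1.05 with any 1 animal left out. ADAMTS5, an aggrecan-cleaving enzyme, was near the detection limit, at 0.319 to 1.40 CPM in the high drip group and 0.829 to 3.01 CPM in the low drip group, with a fold of -0.72 ± 0.33 (unadjusted p 0.0443, adjusted p 0.999 by edgeR). ADAMTS2, which trims the end of procollagen, had 29.4 ± 6.81 and 32.9 ± 3.85 CPM. Of 10 tested ADAMTS genes 7 had a fold below 0, with a median of -0.22.

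Among the matrix metalloproteinases, MMP2, the gelatinase made by stromal cells, had 123 ± 18.0 CPM in the high drip group and 118 ± 33.4 CPM in the low drip group. Its activator at the cell surface, MMP14, had 20.5 ± 3.94 and 20.3 ± 3.07 CPM. The 2 genes gave folds of 0.09 ± 0.15 and 0.02 ± 0.15. MMP11 ran from 13.3 to 25.8 CPM (median 18.6) in high and from 13.7 to 18.3 CPM (median 15.0) in low drip animals, a fold of 0.25 ± 0.14. The 3 high drip males, at 21.2 to 25.8 CPM, lay above all other animals. MMP25, a membrane-anchored enzyme of neutrophils, gave the highest fold among the members, 1.20 ± 0.57. That value rested largely on high drip replicate 4, at 6.70 CPM, since the next animal had 2.25 CPM and the fold was 0.62 without replicate 4. Of the 6 tested metalloproteinases 5 had a fold above 0, with a median of 0.17.

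Other genes that make or modify matrix, from a list of 63 (47 with a symbol in the tables, 44 tested), included 21 with a fold above 0 and 23 below, with a median of -0.02. None passed the test. The smallest p-values were those of NID1, which joins laminin to type IV collagen (fold -0.35 ± 0.14), P4HA3, a collagen prolyl hydroxylase subunit (-0.60 ± 0.24), and PCOLCE2, an enhancer of procollagen processing (-0.34 ± 0.14). All 3 had an adjusted p of 0.999 by edgeR.

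Sums over marker genes of other cell types overlapped between the drip groups. Endothelial genes (7 of 10 measured) summed to 222 to 340 CPM in the high drip group and 227 to 296 CPM in the low drip group. Of these 7 genes 6 had a fold above 0, with a median of 0.09, beside 51.2% of all features. Smooth muscle and pericyte genes (8 of 10) summed to 208 to 360 and 196 to 316 CPM, with 4 folds above 0 and 4 below. The adipocyte genes PLIN1 and CIDEC (2 of 7) summed to 6.74 to 19.2 and 9.78 to 33.7 CPM, with both folds below 0 and a median of -0.59, and their part in the matrix values was not tested. Tendon genes (COMP and KERA, 2 of 6) summed to at most 7.25 CPM, and cartilage genes (5 of 6, MATN1 at 0 in all libraries) to at most 1.30 CPM.

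The drip difference was also compared between the sexes. The interaction term subtracts the drip difference of the females from that of the males, and edgeR called 0 of 10093 features (0.0%) and 0 of the 65 members. At an unadjusted p under 0.05 there were 345 features (3.42%) and 6 members, 5 of them positive (1.74% of all features) and 1 negative (1.67%). In the 9 animals 7 members and 6.36% of all features had such a p, and 0 were called. DESeq2 called 4 features for this term, none of them among the 65. MMP25 (3.06 ± 0.85), LAMB2 (0.61 ± 0.21), MMP11 (0.66 ± 0.23), MMP14 (0.59 ± 0.27) and ITGA10 (0.71 ± 0.29) were positive, and ADAMTS20 (-1.26 ± 0.51) was negative, all with an adjusted p of 1.00 by edgeR. For LAMB2 the means were 158 ± 6.80 CPM in high drip females, 202 ± 37.1 in low drip females, 203 ± 19.4 in high drip males and 170 ± 19.9 in low drip males (n = 3 each). All 6 tested metalloproteinases had a positive interaction (median 0.62), as had 51.0% of all features. In females all 6 were lower in high drip (median -0.22), and in males 5 of 6 were higher (median 0.45). In females, drip group and liver transcripts coincided, so their parts in the female values cannot be told apart. High drip replicate 2 and low drip replicates 1 and 2, all female, also had a table conflict. The median interaction of the 65 members was 0.22, and it was -0.04 without high drip replicate 4 and 0.04 with the tables as recorded.

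Between the sexes, edgeR called 0 features (0.0%) and 0 members, and DESeq2 called 2 features. At an unadjusted p under 0.05 there were 674 features (6.68%), and 10 of the 65 members were higher in males and 0 higher in females, beside 3.53% and 3.15% of all features. Regardless of p, 43 of the 65 were higher in males, as were 49.5% of all features. In the 9 animals the counts were 13 and 1, beside 3.54% and 4.05% of all features (7.59% in either direction). The females left there were high drip replicates 1 and 3 and low drip replicate 3, against all the males. THBS4 had 39.8 ± 7.96 CPM in males and 28.4 ± 4.06 CPM in females (n = 6 each), a fold of 0.49 ± 0.15 with an adjusted p of 0.604 by edgeR. COL12A1 had 18.8 ± 3.93 and 12.8 ± 2.72 CPM, a fold of 0.55 ± 0.17 (adjusted p 0.623 by edgeR). ITGB3, the beta chain of the vitronectin receptor, had 12.2 ± 1.28 and 9.17 ± 1.12 CPM, a fold of 0.40 ± 0.12. FMOD had 44.4 ± 8.23 and 32.8 ± 6.02 CPM, a fold of 0.44 ± 0.14. The sexes overlapped in each of the 65 members, while 0.337% of all features separated without overlap.

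The matrix genes varied together more within some classes than within others. Correlations are of log2 CPM across the 12 animals, which share libraries, depth and liver content, and no p is given for medians. Over all 2080 pairs of the 65 members the median Pearson r was 0.16, with 15.2% of pairs above 0.5. Over all pairs of tested features the median was near 0, with 7.01% above 0.5. The median was 0.86 for the single pair of type VI chains, 0.62 among the proteoglycans, 0.43 among fibrillar collagens and 0.40 among fibulins and fibrillins. It was 0.03 among integrins and -0.07 among laminins. Fibrillar and type VI chains correlated with each other at a median of 0.74, higher than the 0.43 within the fibrillar class, where COL11A1 ran against the others. Averaged over the 65 members, log2 CPM was highest in high drip replicate 4 (0.29 above the mean over animals) and lowest in high drip replicate 3 (-0.23) and replicate 1 (-0.19).

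**Figure D4:**
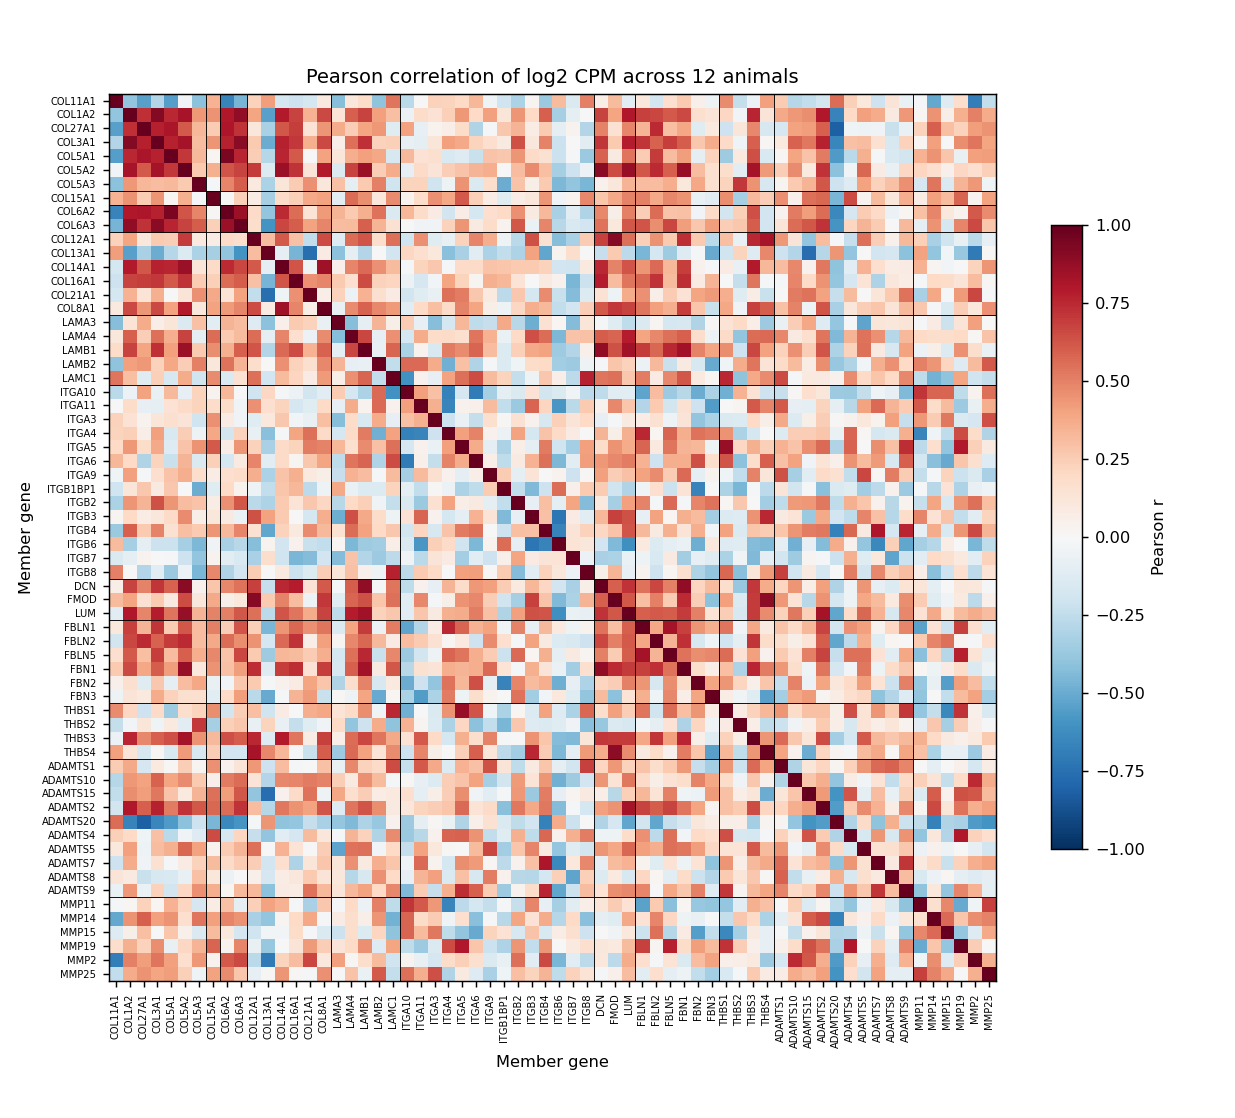
Pearson correlation of log2 CPM across the 12 animals for each pair of 64 tested matrix genes, ordered by class with black lines between classes. COL1A2, COL3A1, COL5A1, COL5A2 and COL27A1 are red with both type VI chains, COL11A1 is blue with most of them, the integrin block is pale, and ADAMTS20 is blue against most collagens.

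Of 16 pairs listed for shared proteins or structures, 5 had both genes measured, and 4 of the 5 had an adjusted permutation p under 0.05 (100000 resamples, two-sided, adjusted over the 5). FMOD and THBS4, both found in tendon-like tissue, correlated at r = 0.90 (rho = 0.92, permutation p 4e-05, adjusted p 0.0002). DCN and FBN1 correlated at r = 0.89 (rho = 0.87, permutation p 0.00011, adjusted p 0.000275). DCN and LUM, neighbouring genes in the pig assembly Sscrofa11.1, had r = 0.72 (rho = 0.68, permutation p 0.00785, adjusted p 0.0131). COL5A1 and COL5A2, which share a trimer, had r = 0.71 (rho = 0.69, permutation p 0.0107, adjusted p 0.0133). LAMA4 and LAMC1, partners in vessel wall laminin, had r = 0.46 (rho = 0.27, permutation p 0.136, adjusted p 0.136). Without the 2 animals farthest from the median of the first gene, r was 0.91 for FMOD with THBS4, 0.69 for DCN with FBN1, 0.62 for DCN with LUM and 0.56 for COL5A1 with COL5A2. For r, FMOD with THBS4 then had an adjusted permutation p of 0.00175 and the other 3 missed the threshold, while for rho DCN with FBN1 passed too (adjusted permutation p 0.0266). Leaving out the farthest animals narrows the range of the first gene, which can lower r by itself. The lower r of DCN with FBN1, of DCN with LUM and of COL5A1 with COL5A2 therefore cannot tell whether it rests on those animals. Within the 6 libraries with liver transcripts the 4 values of r were 0.97, 0.91, 0.78 and 0.75, and within the 6 without they were 0.90, 0.85, 0.58 and 0.71.

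A further 5 pairs were added after the tables were seen, because many listed genes had no ID. Their p-values were adjusted over these 5 only and not over the 2080 pairs, so they are a description and not a test. COL1A2 with COL3A1 had r = 0.92 (rho = 0.85, permutation p 8e-05, adjusted p 0.0004) and COL6A2 with COL6A3 had r = 0.86 (rho = 0.90, permutation p 0.00061, adjusted p 0.00152). COL1A2 with COL5A2 had r = 0.82 (adjusted permutation p 0.00182). LAMB1 with LAMC1 had r = 0.58 (adjusted permutation p 0.0613), and COL3A1 with MMP2 had r = 0.54 (adjusted permutation p 0.0704). The COL3A1 with MMP2 value moved with the setting: r was 0.31 in the 9 animals, 0.22 without the 2 farthest animals, 0.63 with total counts (adjusted permutation p 0.0308) and 0.71 on residuals after sex and drip (adjusted permutation p 0.0126). The permutation shuffled the residuals as independent values although sex and drip had been fitted, so the p on residuals is likely too small.

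The following pairs were picked from the 2080 after their values were seen and are given as a description with no p. COL5A1 with COL6A2 had r = 0.94, the highest of all. COL12A1 correlated with FMOD at 0.91 and with THBS4 at 0.82, while COL3A1 correlated with FMOD at 0.26 and with THBS4 at 0.01. THBS1 correlated with ITGA5 at 0.87, with LAMC1 at 0.76, with MMP19 at 0.73 and with ADAMTS9 at 0.71, but with COL3A1 at 0.19 and with DCN at 0.18. In the 9 animals the r of THBS1 with ITGA5 was 0.77. Against COL3A1, THBS2 had r = -0.04 and ADAMTS8 had r = -0.16. ADAMTS20 ran against the collagens, with r = -0.82 for COL27A1, the lowest of all pairs, and -0.66 for COL3A1. Neighbours in Sscrofa11.1 did not all vary together: COL3A1 and COL5A2 had r = 0.84, while ADAMTS8 and ADAMTS15 had -0.08.

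**Figure D5:**
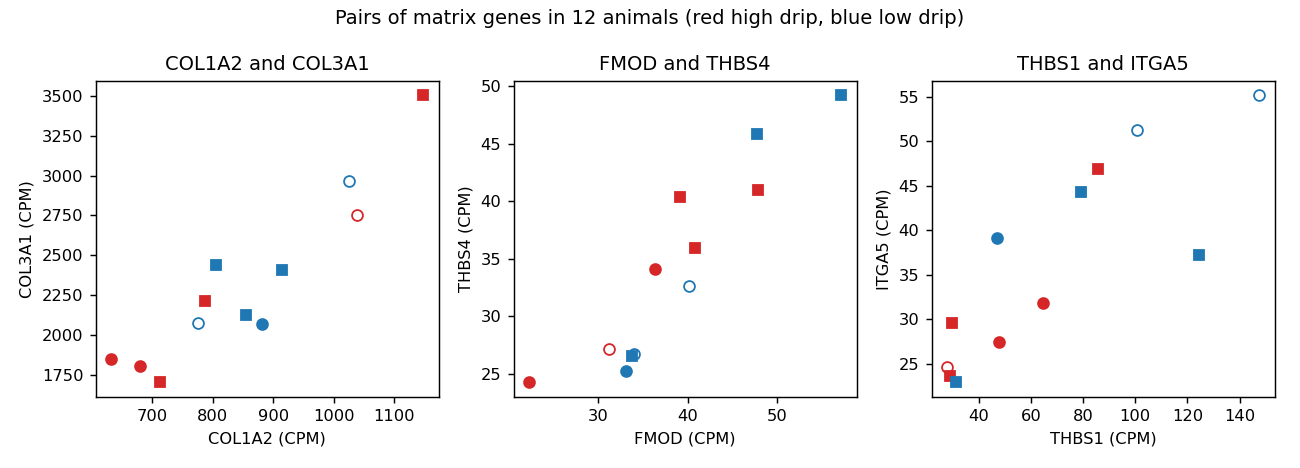
CPM of 3 pairs of matrix genes in the 12 animals, on linear axes that do not start at 0, with red for high drip, blue for low drip, circles for females, squares for males and open symbols for the 3 animals whose recorded table carried another number. COL1A2 and COL3A1 are both highest in high drip replicate 4 (3504 CPM of COL3A1), THBS4 is higher where FMOD is higher, and ITGA5 is highest in low drip replicate 1, where THBS1 reaches 147 CPM.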

How the data were processed

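Muscle mRNA of 12 pigs was sequenced. The authors deposited whole-number counts of reads for each gene. Per the submitters' processing notes the authors used TopHat2 2.0.3, Bowtie 0.12.7.0, HTSeq and the build Sscrofa10.2. The strand setting and annotation release are not given in the sources used here, so overlapping genes and their antisense partners cannot be told apart. The 5 lines that name no gene were left out. Shares were taken of the sum of gene counts, reads in no gene, ambiguous reads and alignments that were not unique. Of that sum, reads in no gene came to 24.2% to 29.3% and ambiguous reads to 0.653% to 0.784%. Alignments that were not unique came to 12.8% to 15.5%. Symbols came from a table of gene IDs that matched 10349 of 20300 Ensembl IDs, and gene order came from RefSeq (Sscrofa11.1). Counts were fitted for all features by the quasi-likelihood test of edgeR 4.0.16 (R 4.3.3) with sex as a term, after filterByExpr and TMM scaling, and p-values were adjusted by Benjamini-Hochberg over all tested features, with a threshold of 0.05. The alternatives were DESeq2 1.42.0, limma 3.58.1 (voom), total counts, no filter, terms for age and for liver transcripts, single sexes, other table assignments and each animal left out. CPM scales counts to the tested features' total times the TMM factor (0.894 to 1.08), log2 CPM used a prior count of 2, and groups are given as mean ± SD. Depth limits genes near 1 CPM, where a library has about 10 counts. Levels are not compared between genes, since gene lengths were not used. The edgeR drip fit was tested on simulated counts with known changes, while the interaction, the sex contrast and the correlations were not.

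Whole-genome tables were assigned by the number in their name rather than by the recorded sample, which differs for 3 females. The genes, lists and tests were chosen with earlier results of these data known. Genes are named where they were among the 10 with the smallest drip p, among DCN, LUM, FMOD, FBN1 and THBS4, among the 2 highest of each class, in a correlated pair, among the 3 smallest p for sex or interaction, or among the 3 smallest p of the other matrix genes. Others named were chosen after their values were seen. One tested gene is counted in the class totals but is not reported here by name or drawn.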

Additional observations from a re-analysis of the deposited data

Results flagged for a closer look

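In 5 of 72 groups of 6 animals checked (36 named genes in each drip group), the most extreme animal stood apart: its gap to the nearest animal, divided by the range of the group, was above Dixon's 95% value. Chance gives about 1 in 20 for independent groups of normally distributed values. These groups share animals, and the genes were partly chosen by their values, so that rate is only a rough guide here. COL6A3 was at 414 CPM in low drip replicate 2, and the nearest low drip animal was at 326 CPM. MMP2 in the same animal was at 182 CPM, with the nearest at 127 CPM. Low drip replicate 2 is 1 of the 3 females whose recorded table carried another number. ITGA5 was at 46.9 CPM in high drip replicate 4, with the nearest high drip animal at 31.8 CPM. MMP25 in that animal was at 6.70 CPM, with the nearest at 2.25 CPM. THBS2 was at 10.2 CPM in low drip replicate 5, with the nearest low drip animal at 87.1 CPM.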

How the results depend on the processing

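No named gene passed the drip threshold under any alternative, and the lowest adjusted p was 0.773, for MMP25 without low drip replicate 3 (edgeR, Benjamini-Hochberg). Several folds near 0 turned sign. In the 9 animals folds turned for COL15A1 (0.022), COL3A1 (0.0057), COL5A1 (-0.16), ITGB1BP1 (-0.012), LAMB2 (0.011), LUM (0.014) and THBS4 (0.025). With the tables as recorded they turned for COL14A1 (0.055), COL15A1 (0.0086), COL3A1 (0.015), COL5A1 (-0.13), COL6A2 (0.0080), ITGB1BP1 (-0.0079), LAMA4 (-0.097), LAMB2 (0.12) and MMP14 (-0.0042). A liver term turned COL6A2 (0.040), LAMA4 (-0.012) and LAMB2 (0.013). With that term 7 of 65 members had an unadjusted p under 0.05 by edgeR, beside 4.59% of all features, and 0 were called for drip. Total counts turned COL5A1 (-0.0037), and an age term turned COL5A1 (-0.013). Leaving out high drip replicates 1 and 4, an alternative chosen after seeing the data, turned COL5A1 (-0.024) and THBS4 (0.013). In females alone, where drip group and liver transcripts coincided, COL5A1 (-0.092), MMP11 (-0.084), MMP14 (-0.28), MMP2 (-0.16), MMP25 (-0.41) and THBS4 (0.017) turned. In males alone ADAMTS2 (0.031), COL14A1 (0.035), COL15A1 (0.12), COL1A2 (0.036), COL3A1 (0.085), COL6A2 (0.22), ITGB1BP1 (-0.015), LAMB2 (0.25) and LUM (0.073) turned. With 1 animal left out, folds spanned -0.16 to 0.068 for COL14A1, -0.19 to 0.065 for COL3A1, -0.16 to 0.099 for COL6A2, -0.16 to 0.0060 for DCN, -0.11 to 0.016 for LAMB2, -0.16 to 0.016 for LUM, -0.13 to 0.057 for THBS4, -0.21 to 0.16 for COL5A1, -0.025 to 0.091 for LAMA4, -0.059 to 0.13 for MMP14 and -0.089 to 0.036 for COL15A1. The interaction count over all features was 4 with DESeq2 and 1 with a liver term. The median interaction of the members was 0.040 with the tables as recorded, 0.52 with a liver term and -0.041 to 0.28 with 1 animal left out. The sex count was 2 with DESeq2 and 1 with no filter. By Pearson r, 1 of the 5 listed pairs passed without the 2 farthest animals, 2 in the 6 libraries with liver transcripts and 0 in the 6 without. By Spearman rho these counts were 2, 0 and 0. For FMOD with THBS4, r was 0.90 both in all 12 animals and in the 6 libraries without liver transcripts. Its adjusted permutation p was 0.0002 with 12 animals and 0.16 with 6, so the counts depend on the number of animals too. LAMA4 with LAMC1 had r = -0.068 without the 2 farthest and -0.023 in libraries without liver transcripts, but 0.58 on residuals after sex and drip (adjusted permutation p 0.0504, and 0.0466 for rho). Both p-values on residuals are likely too small, since the permutation did not allow for the fitted terms. The cause of the differences between settings was not tested. No paired analysis was possible because the labels give no replicate numbers: those used here follow accession order within a group and only name the animals.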
